A study of Drosophila melanogaster with 3 samples.

Results

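The cytoplasmic ribosomal protein genes of Drosophila melanogaster are those whose symbols start with RpL, for proteins of the large ribosomal subunit, or RpS, for proteins of the small one. The mitochondrial mRpL and mRpS genes are not among them. By this rule 92 of the 13945 protein-coding genes on the main chromosome arms were members, 54 of them RpL and 38 RpS. Binding of Prospero, a homeodomain transcription factor of the nervous system, was mapped by sequencing of immunoprecipitated chromatin (ChIP-seq), with whole embryos aged 2 to 18 h, of both sexes together. The embryos came from a transgenic strain, pros-GFP, that makes Prospero with green fluorescent protein at its C terminus, and the precipitation used an antibody against GFP. There was a single group of 3 biological replicates, all with this genotype, and the resident pros gene is not said to be removed. The control library named in the labels was not used here.

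Each ribosome holds a single copy of nearly every ribosomal protein, so these genes are transcribed strongly in all growing cells. Loss of a single copy of many of them slows fly development and gives short bristles, the Minute phenotype. Their promoters are known for a pyrimidine-rich initiator at the start site in place of a TATA box, read with the TBP-related factor Trf2. Many also carry the DNA replication-related element (DRE), the site of the factor Dref. Prospero is passed by dividing neuroblasts to their smaller daughter cell, where it ends self-renewal.

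The bases around the start sites of 6 members are printed because the summits of bound members lay at such starts. All but RpS10b have a pyrimidine word there, and RpS10b is shown for its Prospero core. Each runs from 60 bases before the annotated start of the gene to 20 bases after it, so base 61 is the start. Capitals mark pyrimidine words within 20 bases of the start (the word CTCTTT, the word CCTTTT, the word TCTTTT, the word TCTTTC or the word CCTTTC, on the gene's strand). They also mark, on either strand, the DRE (TATCGATA), the Prospero core AAGACG or its reverse CGTCTT, the core of Ohler motif 1 (GGTCACAC), the E-box CACGTG and the GAGA motif GAGAG, whose reverse CTCTC can overlap a pyrimidine word. The sequences are those of the RefSeq copy of release 6 of the genome, whose coordinates are those of dm6, read 5′ to 3′ on the strand of the gene. RpL8 lies at chr3L:2587396-2587476 (plus), RpL4 at chr3R:27922761-27922841 (plus), RpL34a at chr3R:26059247-26059327 (minus) and RpS10b at chrX:19597971-19598051 (plus). These 4 were bound, with the strongest summit within 100 bp of a start. RpS3A at chr4:67187-67267 (minus) fell just outside the optimal set, and RpL40 at chr2L:4227639-4227719 (plus) had no summit in the pooled list.
RpL8: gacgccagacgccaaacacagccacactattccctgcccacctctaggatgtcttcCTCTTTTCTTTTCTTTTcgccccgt
RpL4: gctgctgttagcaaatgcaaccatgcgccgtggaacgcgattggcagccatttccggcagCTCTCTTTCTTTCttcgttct
RpL34a: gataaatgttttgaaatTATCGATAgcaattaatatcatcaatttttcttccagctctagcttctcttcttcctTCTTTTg
RpS10b: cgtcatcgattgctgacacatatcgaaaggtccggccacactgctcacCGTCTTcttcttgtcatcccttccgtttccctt
RpS3A: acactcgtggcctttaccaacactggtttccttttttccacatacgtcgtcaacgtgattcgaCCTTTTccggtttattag
RpL40: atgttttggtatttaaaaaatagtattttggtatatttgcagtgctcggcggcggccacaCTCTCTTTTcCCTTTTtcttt

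Prospero summits of the optimal set were found at 35 of the 92 ribosomal protein genes. A gene is called bound here when a summit, the position the authors' caller marked inside a peak, lay in its body or up to 1000 bp upstream. The optimal set is the 6215 peaks that the authors kept as reproducible between replicates, by their irreproducible discovery rate (IDR), and its peaks are the 6215 strongest of the 30000 called on the pooled replicates. The members bound made up 38.0% (exact binomial 95% interval 28.1% to 48.8%), against 17.9% of all protein-coding genes (2502), a ratio of 2.12. Ribosomal protein genes are short, with regions of 1304 to 5677 bp. Among the 10212 protein-coding genes in that range of length 9.97% were bound, so against them the ratio was 3.82. With a single group there was no contrast to test, and all shares here are descriptions of these peak lists. Intervals cover counting error only. In whole embryos, binding in few cells and weak binding in many cannot be told apart.

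The share of bound members differed more between replicates than did the share of all genes. Replicates were compared through the 6215 strongest peaks of each list, as many as the optimal set holds. Replicate 1 had a summit at 25 of the 92 members, replicate 2 at 20 and replicate 3 at 42. In percent these were 27.2%, 21.7% and 45.7%, with a mean of 31.5% ± 12.5 (SD, n = 3). Over all protein-coding genes the shares were 16.9%, 17.1% and 19.4%, a mean of 17.8% ± 1.38 (SD, n = 3). Members were above all genes in each replicate, by the least in replicate 2, and replicate 3 stood apart from the others. In the length range of the members the background was 8.74%, 9.19% and 11.4% in replicates 1, 2 and 3. No depth is known for any replicate, since the lists hold no read counts.

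**Figure D1:**
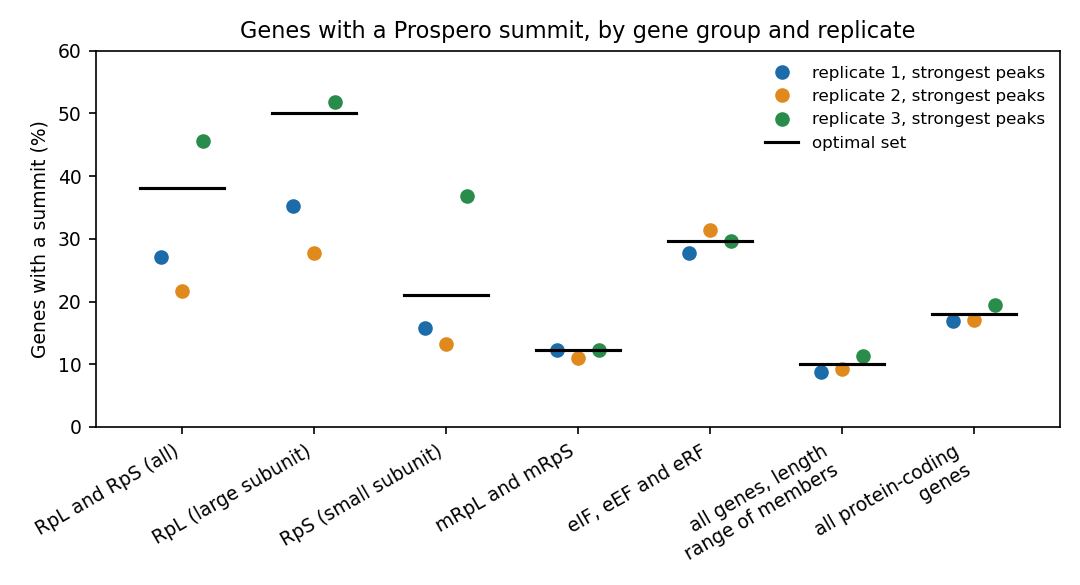
Share of genes (%, vertical axis) with a Prospero summit in each gene group (horizontal axis). Points are the 6215 strongest peaks of each of the 3 replicates and bars the optimal set. The points of all RpL and RpS genes run from 21.7% to 45.7%, with replicate 3 highest, while those of all protein-coding genes run from 16.9% to 19.4%.

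The weight of replicate 3 was also seen summit by summit. Of the 35 strongest summits, 1 per bound member, 32 had a match within 150 bp among the strongest peaks of replicate 3, 24 in replicate 1 and 17 in replicate 2. A match in all 3 replicates was found for 14 (40%), where it was found for 61.3% of the 1817 optimal-set summits within 500 bp of a protein-coding start. Another 10 were matched in 2 replicates and 11 in a single replicate, which was replicate 3 for 10 of them. The best rank among the replicates came from replicate 3 for 27 of the 35 (77.1%), against 42.7% (775) of those 1817 summits. Counting only optimal-set summits matched in both other replicates, 17 members (18.5%) were bound without replicate 3, where all genes stood at 13.7% and genes in the length range at 6.57%. Without replicate 1 it was 15 members (16.3%, all genes 13.9%), and without replicate 2 it was 21 (22.8%, all genes 14.1%). What sets replicate 3 apart was not tested.

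Member summits were of middle to low strength. Peaks were ranked by the authors' signal value, from 1 for the strongest. The strongest summit of a bound member ranked between 646 and 6159 in the optimal set, with a median of 3892. When the set was cut by rank into 5 equal parts of 1243 peaks, the strongest part held 1 of these 35 summits, and the next parts held 5, 10, 10 and 9. The 1817 summits near starts were spread evenly, with 18.9% to 21.6% in each part. In the stronger 50% of the optimal set 12 members were bound (13.0%), against 10.6% of all genes and 4.71% of genes in the length range. All 6 member summits in the strongest 2 parts were matched in all 3 replicates, then 5 of 10, 3 of 10 and 0 of 9. For all summits near starts the same shares were 96.4%, 91.9%, 71.3%, 36.8% and 5.54%.

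The strongest summit in a member's region was nearer to a neighbour. It lay at −435 bp, negative meaning upstream of the nearest start of the member, from RpLP0-like, a relative of the stalk protein RpLP0, at 10100025 on 2R, and ranked 771, 260 and 1459 in replicates 1, 2 and 3. The start of 14-3-3zeta, a signalling adaptor on the other strand, was nearer, at 348 bp. The summit was among the strongest 6215 in every replicate.

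RpS27, a small subunit protein gene, had its summit at −6 bp from its nearest start (3R, 25247478), ranked 4608, 2110 and 1251. By the outermost start this was 36 bp into the gene. RpL31 had one 41 bp downstream of its nearest start and 83 bp into the gene (2R, 9587276), ranked 2875, 1319 and 1995. The summit of RpL11, whose protein binds 5S ribosomal RNA together with RpL5, was at −2 bp (2R, 19442340) and ranked 4390, 2449 and 1204. Replicate 3 gave the best rank at RpS27 and RpL11, and replicate 2 at RpL31.

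RpS4, for a small subunit protein, had its summit 31 bp downstream of its nearest start and 76 bp into the gene (3L, 13041832). It ranked 2761, 4638 and 1484. RpL13 had a summit at −17 bp (2L, 9967296), with ranks of 2370, 3082 and 2970. Its region is shared with Dref, which starts on the other strand and encodes the DRE-binding factor. At RpL8, a protein near the catalytic centre of the ribosome, the summit was 28 bp into the gene (3L, 2587484) and ranked 4151, 3703 and 1978. The mean rank was 2961 ± 1586 for RpS4, 2807 ± 383 for RpL13 and 3277 ± 1147 for RpL8 (SD, n = 3), so their order does not exceed the spread between replicates.

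Among the weaker bound members, in order of strength, were RpS10b, RpL32, RpL34b, RpL3, RpL19, RpL13A, RpL7, RpS28b and RpS19a. RpL32 is widely used as a reference gene in fly expression work, and its summit ranked 3922, 2757 and 2568 in replicates 1, 2 and 3. Of the 35, the largest gap in rank between replicates was at RpS28b, whose strongest summit ranked 24104, 18050 and 1631. That summit was at −833 bp from RpS28b and 40 bp from the start of its neighbour l(1)G0320. The summit of RpL13A ranked 11777 in replicate 1 and 1739 in replicate 3, and replicate 2 had none within 150 bp of it. The weakest of all was RpS16, at rank 6159 of the optimal set.

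**Figure D2:**
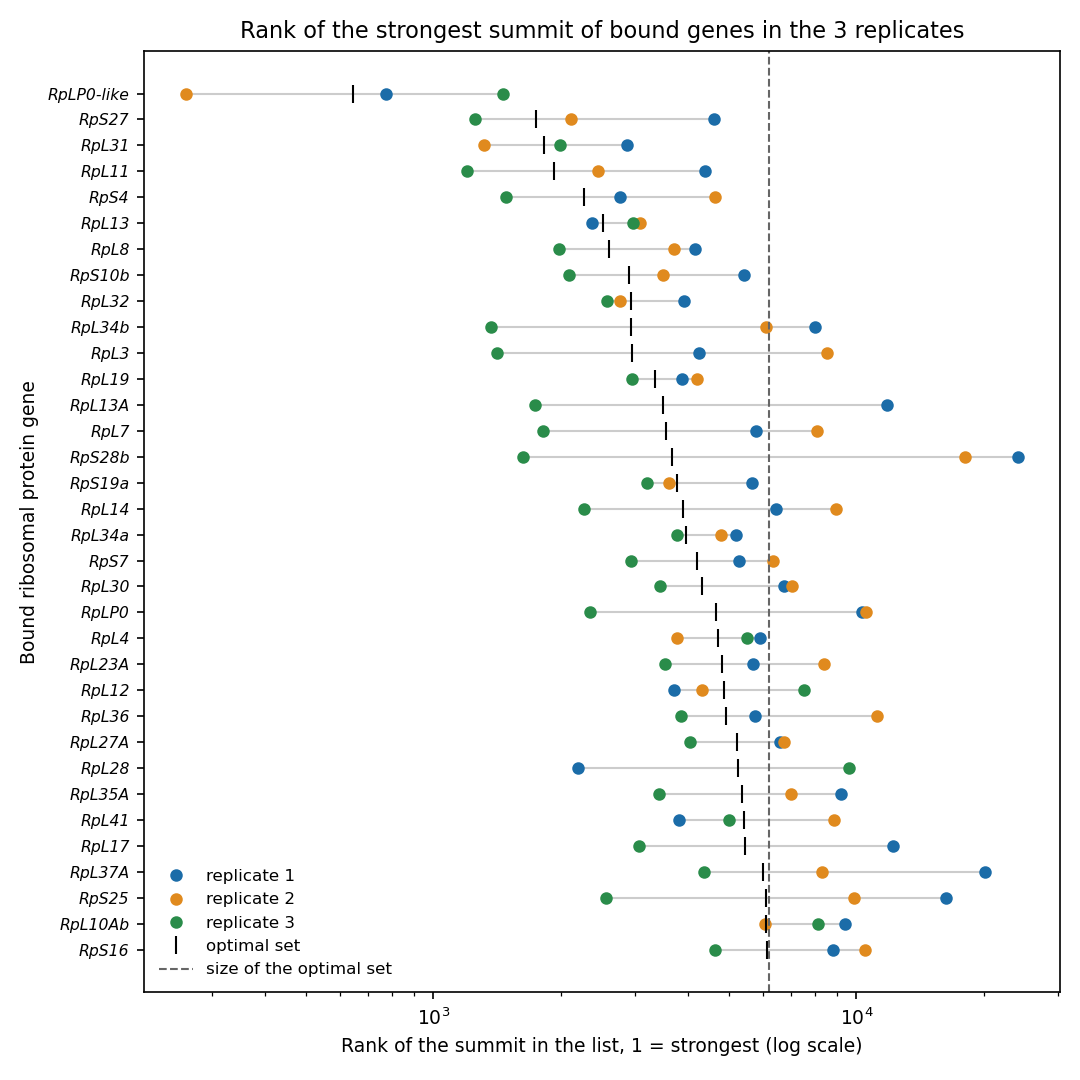
Rank of the strongest optimal-set summit of 34 of the 35 bound genes (vertical axis) in the lists of the 3 replicates (coloured points) and in the optimal set (black marks), on a log scale, with the strongest to the left. Grey lines join the replicates, a missing point means no summit within 150 bp, and the dashed line is at 6215. Replicate 3 is leftmost for 26 of the 34 genes.

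Summits lay on the start sites of ribosomal protein genes rather than upstream of them. Of the 40 optimal-set summits in member regions, 30 were within 100 bp of an annotated start of the member and 34 within 500 bp. Taking each gene's strongest summit within 500 bp of a start, the median place was −5.5 bp in 32 members (quartiles −27 and 9.25 bp). In the 1614 other protein-coding genes with such a summit the median was −122 bp (quartiles −220 and 20 bp). Within 100 bp of the start were 93.8% of these member summits and 27.3% of those of other genes, or 29.0% of those of other genes in the length range. The counts of genes with a summit within 500 bp stood at 34.8% of members and 11.8% of all genes.

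The same place was found in each replicate. The share of member summits within 100 bp of the start was 95.2% in replicate 1 (20 of 21), 83.3% in replicate 2 (15 of 18) and 92.9% in replicate 3 (39 of 42). The mean was 90.5% ± 6.30 (SD, n = 3), against 28.5% ± 3.68 (SD, n = 3) in other genes, and the ranges of the groups did not overlap. The replicate medians were −4, −7 and −12 bp in members and −105, −114 and −119 bp in other genes. At RpS4 the summits of the 3 replicates lay within 4 bp of each other, and so did those of RpS10b. Over 29 members with a strongest summit near the start and a match in every replicate, the replicates differed by a median of 61 bp (4 to 160 bp). A difference between members of less than that cannot be read from these lists.

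**Figure D3:**
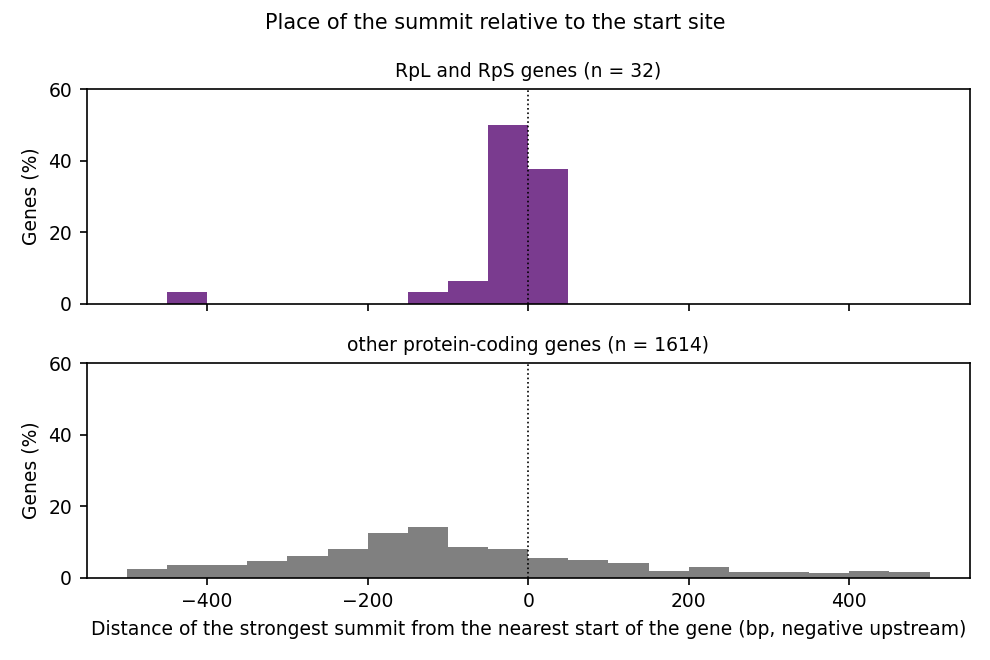
Distance of each gene's strongest optimal-set summit within 500 bp of a start from the nearest annotated start of the gene (bp, negative upstream, horizontal axis). The vertical axis is the percentage of genes per 50 bp, for 32 ribosomal protein genes and 1614 other protein-coding genes. Summits farther from a start are left out. Summits of the ribosomal protein genes gather at the start, with a median of −5.5 bp, and those of other genes spread upstream of it, with a median of −122 bp.

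By annotation, 21 of the 40 member summits were upstream of the gene, 18 in a 5′ UTR, 1 in an intron (of RpL3) and none in coding sequence. A single summit was found at 30 of the bound members and 2 summits at the other 5, among them RpLP0-like, RpL3 and RpS28b. For 31 of the 35 the strongest summit was nearer to a start of the member than to that of any other protein-coding gene. The exceptions were RpLP0-like, RpS28b, RpL28 and RpL10Ab. The strongest summit in the region of RpL28, at −703 bp, was 322 bp from the start of eIF1, an initiation factor gene. In 25 of the 35 the strongest summit also lay in the region of another protein-coding gene, so position alone does not assign it to the member.

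Members that share their promoter with a gene on the other strand were bound more often. A divergent protein-coding start within 500 bp upstream was annotated for 36 members, of which 21 were bound (58.3%). Of the 56 without one, 14 were bound (25%). The shares with and without a divergent start were 41.7% and 17.9% in replicate 1, 33.3% and 14.3% in replicate 2, and 66.7% and 32.1% in replicate 3. Among other genes in the length range the same split was 14.0% (404 of 2888) and 8.01% (579 of 7232) in the optimal set. The difference was not tested.

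Genes of the large subunit were bound more often than those of the small one. In the optimal set 27 of 54 RpL genes (50%) and 8 of 38 RpS genes (21.1%) had a summit. The RpS genes were RpS27, RpS4, RpS10b, RpS28b, RpS19a, RpS7, RpS25 and RpS16. Replicate 1 gave 35.2% of RpL genes and 15.8% of RpS genes, replicate 2 gave 27.8% and 13.2%, and replicate 3 gave 51.9% and 36.8%. RpL genes were higher in 3 of 3 replicates, but the replicates share the same genes, and this gap was chosen after its values were seen and not tested. Over all protein-coding genes the share was 17.9% in the optimal set and 16.9%, 17.1% and 19.4% in replicates 1, 2 and 3. RpS genes were below all genes in replicates 1 and 2 and above them in replicate 3. In the length range the shares were 8.74%, 9.19% and 11.4%, below those of RpS genes in each replicate. With summits matched in both other replicates, RpL and RpS genes stood at 24.1% and 10.5% without replicate 3, at 20.4% and 10.5% without replicate 1, and at 27.8% and 15.8% without replicate 2. All genes stood at 13.7%, 13.9% and 14.1% in these settings. That was above RpS genes without replicate 3 or 1 and below them without replicate 2. The RpL values of replicates 1 and 2 were both below the RpS value of replicate 3.

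The gap narrowed as weaker peaks were counted. Over all 30000 peaks of the pooled list 73 of the 92 members had a summit (79.3%), against 45.9% of all genes and 36.6% of genes in the length range. These were 81.5% of RpL genes and 76.3% of RpS genes. Of the 57 members not bound in the optimal set 38 had a pooled summit, and 36 of these had at least 1 pooled summit within 500 bp of a start. The median rank of the strongest pooled summit was 5310 in RpL genes, 8245 in RpS genes and 11568 in other genes of the length range that had one. The whole lists of replicates 1, 2 and 3 reached 80.4%, 80.4% and 87.0% of members, against 45.6%, 45.4% and 49.4% of all genes.

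**Figure D4:**
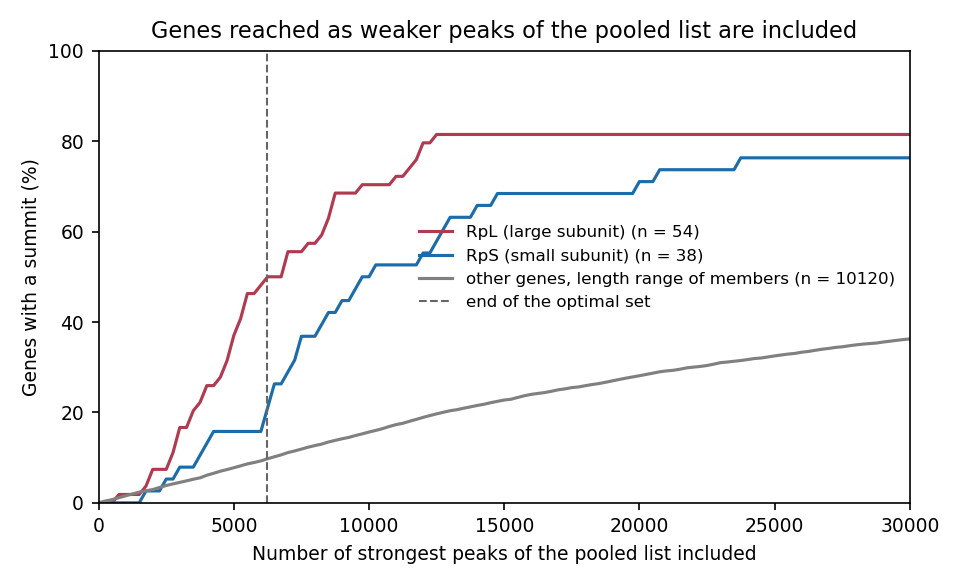
Share of genes with a summit (%, vertical axis) as more of the 30000 pooled peaks are included, from the strongest (horizontal axis), for RpL genes, RpS genes and other genes in the same range of region length. The dashed line marks the 6215 peaks of the optimal set, where RpL genes stand at 50%, RpS genes at 21.1%, and the curves end at 81.5%, 76.3% and 36.3%.

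The members just outside the optimal set had summits at the start as well. The strongest were RpS3A, on chromosome 4, RpS5a, RpL9, RpLP2 and RpS15, at pooled ranks 6269, 6417, 6846, 6893 and 6895. RpS3A ranked 11804 in replicate 1, 7519 in replicate 2 and 4547 in replicate 3, with its pooled summit 31 bp downstream of its nearest start. RpS5a had its pooled summit at −24 bp. The strongest summit in its region ranked 9356, 5531 and 7231 in replicates 1, 2 and 3, at −994, −26 and −24 bp. In replicate 1 it was thus another summit, far upstream of the start. Each of these 5 was among the strongest 6215 in a single replicate.

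The stalk that recruits elongation factors to the ribosome is built on RpLP0, which was bound, with ranks of 10331, 10516 and 2343. Its summit was at −40 bp from its nearest start and 185 bp into the gene. The stalk proteins RpLP1 and RpLP2 were not bound in the optimal set, with pooled ranks of 8701 and 6893. RpL40 and RpS27A, which are made as fusions with ubiquitin, were not bound either. RpS27A had a pooled rank of 11928, and RpL40 was found only in the list of replicate 3, at rank 28566.

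In 13 families of duplicated genes, with 27 members in all, 9 were bound (33.3%). Of the 65 members without a paralog 26 were bound (40%), and the difference was not tested. A single member was bound in 5 families, 2 members in 2 families, and none in 6. In the 5 split families the bound genes were RpL10Ab, RpL7, RpS10b, RpS19a and RpS28b. Their unbound partners were RpL10Aa, RpL7-like, RpS10a, RpS19b, RpS28a and RpS28-like. RpS19b and RpS10a, paralogs known from the germline, had summits only at pooled ranks 19770 and 9654. RpL34a and RpL34b were both bound, with ranks of 5193, 4795 and 3773 in replicates 1, 2 and 3 for RpL34a and of 7984, 6103 and 1370 for RpL34b. RpS14a and RpS14b, near-identical neighbours on X, were unbound, and how reads shared between such copies were treated is not given in the sources used here.

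There were 8 members with no summit in the pooled list or in any replicate list of 30000. Of them 5 are paralogs, namely RpL10Aa, RpL22-like, RpL37-2, RpS28-like and RpS5b, named after their values were seen. Paralogs made up 27 of the 92 members. The others, RpL15 and RpS18 among them, have no paralog by symbol. The same count was not made over all genes, of which 45.9% had a summit in the pooled list. RpL22-like and RpS5b are known for expression in the germline.

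The sequence around member summits differed from that around all summits near starts. Windows reached 100 bp to either side of the strongest summit, and words were searched on both strands. Summits near starts lay at a median of −5.5 bp in members and −122 bp in other genes, so the windows cover different stretches of promoter. The DRE was in 7 of 35 member windows (20%), against 1.32% of the 1817 optimal-set summits within 500 bp of a start and 0.531% of all 6215. In the replicates it was in 20%, 20% and 26.2% of member windows, a mean of 22.1% ± 3.57 (SD, n = 3), against 1.31% ± 0.491 (SD, n = 3) near all starts. The ranges of the replicates did not overlap. A match to a word is a description and not a site of binding.

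The GAGA motif went the other way. It was in 7 of 35 member windows (20%) and in 48.0% of those near all starts. In the replicates the GAGA motif was in 24%, 25% and 19.0% of member summit windows, a mean of 22.7% ± 3.19 (SD, n = 3), against 47.6% ± 2.91 (SD, n = 3) near all starts. The E-box, the site of Myc and related factors, was in 5 of 35 member windows (14.3%) and in 3.41% near all starts. Its replicate values of 16%, 30% and 9.52% varied widely but were each above the 3.26% to 3.44% near all starts. The core of Ohler motif 1 was in 5 of 35 member windows, yet in 0 of 25, 0 of 20 and 7 of 42 in replicates 1, 2 and 3, so it rests on replicate 3.

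The Prospero core AAGACG was in 2 of 35 member windows (5.71%), where it was in 9.85% near all starts and in 11.3% of all optimal-set windows. In the replicates it was in 8%, 10% and 9.52% of member windows, a mean of 9.17% ± 1.04 (SD, n = 3), against 10.7% ± 0.802 (SD, n = 3) near all starts. These ranges overlapped. At RpS10b the core, written CGTCTT on the strand shown above, had its middle 2 bp from the summit, and a further copy stood 37 bp away.

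**Figure D5:**
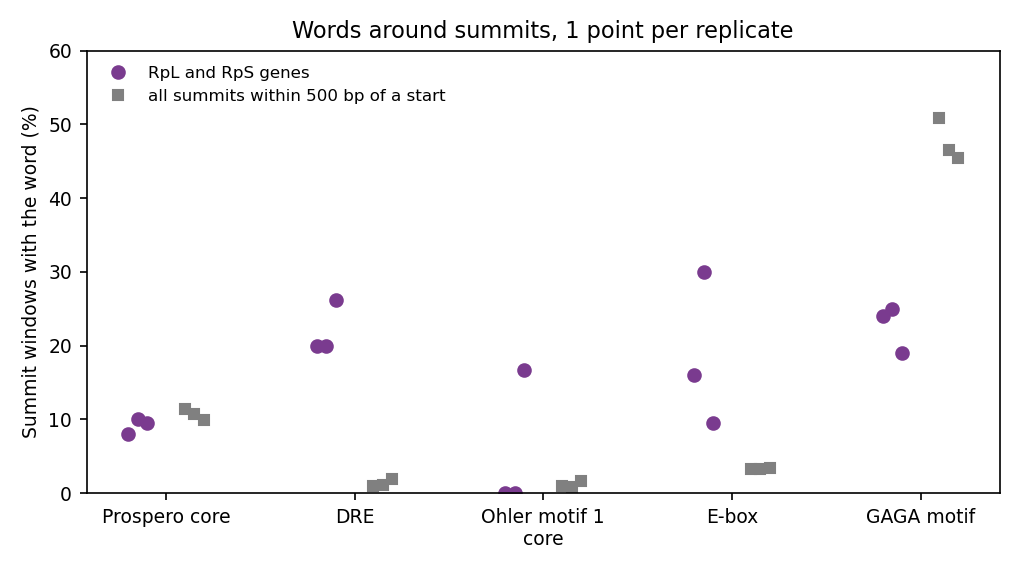
Share of summit windows, 100 bp to either side, that hold each word (%, vertical axis), for the strongest summit of each ribosomal protein gene (circles) and for all summits within 500 bp of a protein-coding start (squares), with 1 point per replicate. The DRE lies at 20% to 26.2% against 0.990% to 1.87%, and the GAGA motif at 19.0% to 25% against 45.4% to 50.9%.

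The DRE, Ohler motif 1 and the pyrimidine words stood at like shares in bound and unbound members, and the difference was not tested. In the 250 bases before and 50 after the start, the DRE was in 11 of 35 bound members (31.4%) and 17 of 57 unbound ones (29.8%), against 9.37% of all protein-coding promoters. The core of Ohler motif 1 was in 14.3% of bound and 15.8% of unbound members, against 7.71% of all. The E-box was in 14.3% of bound and 7.02% of unbound members, against 4.24% of all. A pyrimidine word within 20 bases of the start was in 54.3% of bound and 52.6% of unbound members, against 5.09% of all genes. With every annotated start searched, an option added after the data were seen, it was in 80 of the 92 members (87.0%), 94.3% of bound and 82.5% of unbound, against 7.29% of all genes. Among the promoters printed above, RpL8, RpL4 and RpL34a of the bound and RpS3A and RpL40 of the unbound have such a word. The Prospero core was in the promoters of 1 bound member (2.86%) and 5 unbound members (8.77%). Over all members it was in 6.52%, near the 7.16% of all protein-coding promoters.

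Genes of snoRNAs lie in the introns of many ribosomal protein genes. Of 28 members with a snoRNA gene inside them on the same strand 14 were bound (50%), and of the 64 others 21 (32.8%). Both shares were above the 17.9% of all protein-coding genes and the 9.97% of those in the length range. In replicates 1, 2 and 3 a summit was at 9, 6 and 15 of the 28 hosts and at 16, 14 and 27 of the 64 others, so in replicate 2 the share of hosts was not higher. The difference was not tested. The summits of the hosts were at the start sites as in other members, in 12 of the 14 within 500 bp.

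Other genes of translation were counted in the same way, from lists chosen by symbol or by role. Of 73 mitochondrial ribosomal protein genes 9 were bound (12.3%, exact binomial 95% interval 5.80% to 22.1%), led by mRpL41 and mRpS10 at ranks 283 and 502. The replicates had a summit at 9, 8 and 9 of them. Of 54 translation factor genes 16 were bound (29.6%, interval 18.0% to 43.6%), and the replicates had 15, 17 and 16. The strongest were eIF2Bbeta and eIF2D, at ranks 306 and 650. Over all protein-coding genes the share was 17.9%, inside the interval of the mitochondrial list and just below that of the translation factors. These genes are short too, with median regions of 1909 bp and 2967.5 bp. Among genes in the length range of the ribosomal protein genes the share was 9.97%. That lies inside the mitochondrial interval and below that of the translation factors. By these counts replicate 3 did not stand apart in either list. The ranks of mRpL41 in replicates 1, 2 and 3 were 681, 1149 and 117, and those of mRpS10 were 1031, 1704 and 218. Those of eIF2Bbeta were 757, 1482 and 109, and those of eIF2D were 631, 572 and 796. Replicate 3 gave the best rank at each of these genes except eIF2D. Neither difference in share from the ribosomal protein genes was tested.

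Of 17 subunits of RNA polymerases I and III 3 were bound (17.6%, near the 17.9% of all genes). The strongest were Polr1D at rank 93, 104 bp downstream of its nearest start, and Polr3E at 1455. Of 16 genes of ribosome assembly 2 were bound (12.5%, interval 1.55% to 38.3%), Ns2 and nop5, while Myc and Fib (fibrillarin) were not. Of 9 genes for factors of ribosomal protein promoters and of the response to ribosomal protein loss, 6 were bound. That was 66.7% (interval 29.9% to 92.5%), against 17.9% of all genes, and all 6 had a summit within 500 bp of a start. They were led by Trf2 with 7 summits and Thor, an inhibitor of translation initiation, while BEAF-32 and pzg were not bound. The strongest summit of Trf2 was at −4859 bp from its nearest start. The list is small, and Dref counts in it through the summit it shares with RpL13. The cytoplasmic ribosomal proteins with other symbols, sta and Rack1, were both bound, at ranks 4270 and 4259. Their summits were 43 and 66 bp downstream of the nearest start. The ranks of sta in replicates 1, 2 and 3 were 4126, 5740 and 2452, and those of Rack1 were 3863, 9485 and 2899.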

How the data were processed

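The deposited files were narrowPeak lists on dm6. Per the deposited file descriptions, every replicate was called against a control, the pooled list came from the 3 replicates together, and the optimal set was drawn from these lists. Aligner, peak caller and the threshold of the irreproducible discovery rate are not stated in the labels. The signal per peak is the authors' own, on a scale not stated, and ranked peaks within a list. The deposited −log10 q-value was 4.30 for every peak of the optimal set and was not used further. The summit is the deposited offset from the peak start. Depth is unknown.

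Genes came from Ensembl release 115, whose coordinates are those of dm6, with 13945 protein-coding genes on 2L, 2R, 3L, 3R, 4 and X. Positions are 1-based. Summits of different lists were matched within 150 bp. Counting was tested on simulated data with python 3.11.15, and exact intervals used scipy 1.17.1. Other peak sets, gene regions, distances, replicates left out and a background by length were tried as alternatives. The members, gene lists and words were chosen with earlier results of these data known. All bound members could be named. The 8 strongest were to get full values, with the 5 unbound members next in rank, the stalk and ubiquitin-fusion genes and the partners of bound paralogs. In other lists the rule was the 2 strongest and up to 2 unbound genes. Values of some genes under this rule are not reported here.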

Additional observations from a re-analysis of the deposited data

How the results depend on the processing

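Of 42 alternatives tried, 20 left a result within its limit (a count within 1.5 times, a ratio within the interval of the members' share) and 22 moved it. The ratio of the members' share to that of all genes stayed above 1 in all 12 of its settings. Even so, the members' interval held the all-gene share in the stronger 50% (6.93% to 21.7%, all genes 10.6%). The same was so with summits in all 3 replicates (8.58% to 24.2%, 12.7%). It also held without replicate 1 (9.42% to 25.5%, 13.9%) and without replicate 3 (11.1% to 27.9%, 13.7%). Shares of genes in the length range lay below each of these intervals. The count of 35 bound members became 12 in the stronger 50% of the optimal set, 73 over the pooled list, 18 in gene bodies alone and 14 with summits in all 3 replicates. With a replicate left out it was 15 to 21. The ratio of 2.12 became 1.23 in the stronger 50%, 2.95 within 500 bp of a start, 1.20 with summits in all 3 replicates, 3.82 against genes in the length range, and 1.17 to 1.62 with a replicate left out. The 34 summits near starts became 12 in the stronger 50% and 15 to 21 with a replicate left out. The 14 members recurring in all 3 replicates became 5 with summits within 50 bp, 32 over whole lists, and 15 to 21 with a replicate left out. The mean of 29 members per replicate became 76 over whole lists, 11.3 with 3107 peaks per list, and 22.5 to 33.5 with a replicate left out. Stricter and smaller peak sets hold fewer summits by construction. No paired analysis was possible because there is a single group. Peak lists without counts or depth limit what can be said of weak summits.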

Other observations

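Bound members were spread over the chromosome arms. There were 5 of 19 on 2L (26.3%), 8 of 21 on 2R (38.1%), 7 of 14 on 3L (50%), 10 of 23 on 3R (43.5%) and 5 of 14 on X (35.7%), and the single member on chromosome 4, RpS3A, was not bound. Over all protein-coding genes the arms ran from 16.3% on 2L to 22.5% on chromosome 4.

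Ranks were compared across the 70 members with a summit in all 3 replicate lists, by the strongest summit in the member's region in each list. These summits were not matched and can differ, as at RpL22, at −21, 1652 and −171 bp in replicates 1, 2 and 3. Spearman's rho of these ranks was 0.535 between replicates 1 and 2, 0.563 between 1 and 3 and 0.633 between 2 and 3. This is a description across genes, which share the libraries and are not independent.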
